A study of Citrus sinensis with 6 samples.

Results

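The chloroplast (plastid) genome of sweet orange, Citrus sinensis, was described here as the rows that the files place on the sequence NC_008334.1. These rows hold 150 transcripts, which were summed by gene name into 115 genes, of 31688 genes and 59106 transcripts in all. The 6 libraries were made from excised albedo, the white inner layer of the fruit peel, 3 days after inoculation per the labels. Salicylic acid, a hormone of plant defence, was given at 0.2 mM with Rhodotorula mucilaginosa, a yeast used against fruit moulds, in 3 libraries. The other 3 had that yeast without the hormone. All 6 therefore share the yeast, and no fruit without yeast was analysed here. The labels do not say whether replicates were separate fruit, so the p-values reflect no more than how far these libraries differ among themselves, and that may be technical.

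The chloroplast genome is a small circular chromosome inherited from a photosynthetic bacterium. It encodes core subunits of the photosystems, the cytochrome b6f complex, the ATP synthase and the NDH complex, the large subunit of Rubisco, part of the plastid ribosome, and a bacterial-type RNA polymerase. It also carries the plastid rRNAs and tRNAs, while most plastid proteins are made from nuclear genes. Its genes are often transcribed together in long units that are then cut and spliced, and a large inverted repeat holds a second, mirror copy of the rRNA genes and several others. Albedo is a pale tissue, in contrast to the pigmented outer peel.

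All 140 plastid loci of the RefSeq gene table (assembly DVS_A1.0) were found in the files by locus tag, with the same start and end. Of the 150 transcripts, 141 carried an annotated locus tag and 9 were assembled from reads and carry MSTRG names. By name, 44 genes belonged to photosynthesis (psa, psb, pet, atp, ndh and rbc), 21 to the ribosome (rps and rpl), 4 to the RNA polymerase (rpo) and 37 to RNA (29 tRNA names and 8 rRNA genes), and 9 had other names. The 8 rRNA genes have locus tags in place of symbols and are called CisiCr001 to CisiCr008. Levels are FPKM, fragments scaled for transcript length and library size. The level of a gene is the sum over all transcripts of its name. Names with several copies or separately listed pieces are therefore not on the same scale as names with 1 transcript, also in ranks and in the 1 FPKM limit.

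Plastid transcripts were a small part of every library. Summed over listed transcripts, a library held 4.01 to 5.10 gigabases of coverage, of which 1.53 to 4.88 megabases lay on the plastid. Of all covered bases, plastid transcripts took 0.0992%, 0.0301% and 0.0376% in replicates 1 to 3 given the hormone, and 0.0689%, 0.0487% and 0.109% in replicates 1 to 3 given yeast only. Replicate 1 with the hormone and replicate 3 without it stood above the other 4 libraries, and the groups overlapped. The means were 0.0556% ± 0.0379 with the hormone and 0.0755% ± 0.0305 without it (SD, n = 3 each), and an exact two-sided permutation test gave p = 0.5, where the smallest p this design allows is 0.1. The labels used here do not say how RNA was selected for the libraries, and less plastid RNA per cell and fewer plastid-rich cells cannot be told apart in bulk RNA.

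Between 46.0% and 80.9% of plastid bases in a library, and the widest spread between libraries, lay on a single stretch of the inverted repeat. There, 2 assembled transcripts lie as mirror copies of each other. MSTRG.37.6 runs from position 99072 to 104239 on the minus strand and MSTRG.76.1 from 143635 to 148802 on the plus strand, each with 3 exons and 3947 bases. Both overlap the annotated genes ndhB, rps7 and rps12. The product of ndhB is a subunit of the NDH complex, which returns electrons to the photosynthetic chain, and rps7 and rps12 encode proteins of the small ribosomal subunit. Within its span of 5168 bases each model leaves out 1221 bases, the same number as the intron of ndhB (681 bases) and that of the rps12 locus gene-CisiCp045 (540 bases) together. Positions are those of the files.

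MSTRG.37.6 had levels of 97.2, 17.8 and 21.1 FPKM in the hormone replicates 1 to 3, against 57.1, 37.7 and 107 FPKM without it. MSTRG.76.1 stood at 89.3, 17.5 and 21.7 FPKM with the hormone, against 57.7, 38.7 and 110.2 FPKM without it. The copies followed each other closely, with a ratio between 0.972 and 1.09 in every library. Together they made up 76.0%, 47.7% and 46.0% of plastid bases in the libraries with the hormone and 67.5%, 63.5% and 80.9% in those without. How reads were divided between the copies is not stated, so this joint share, and the plastid share with it, may count some reads in both. As a share of the whole library the 2 assembled transcripts ranged 6.13-fold, from 0.0143% to 0.0879%. The rRNA genes ranged 1.66-fold, from 0.00871% to 0.0144%, and all remaining plastid transcripts 1.695-fold, from 0.00699% to 0.0119%. With both assembled transcripts left out, an alternative chosen after seeing the data, the plastid share was 0.0238%, 0.0157% and 0.0203% with the hormone, against 0.0224%, 0.0178% and 0.0208% without it (p = 0.9, exact permutation test). The group means were then 0.0199% ± 0.00405 with the hormone and 0.0203% ± 0.00234 in yeast alone (SD, n = 3 each).

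**Figure D1:**
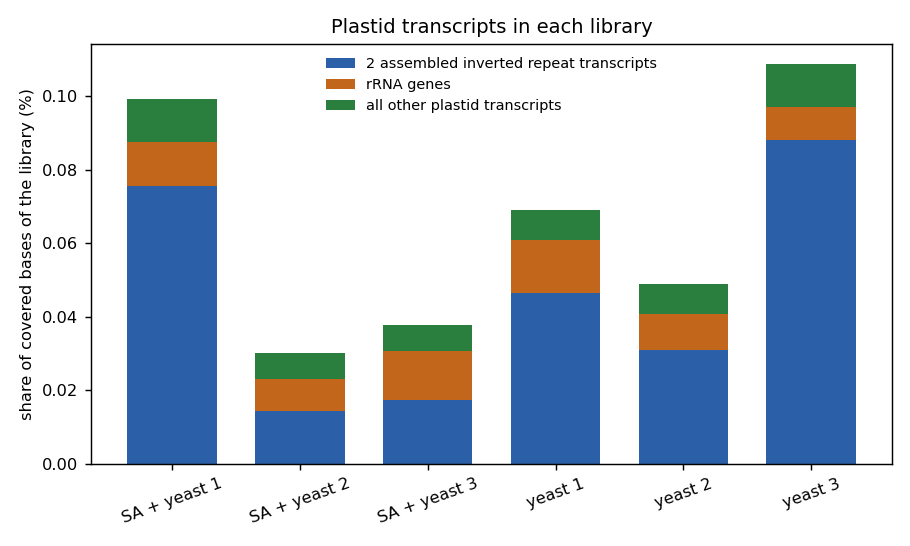
Bars give the plastid share of covered bases in percent for each library, with salicylic acid and yeast (SA + yeast, replicates 1 to 3) on the left and yeast alone (replicates 1 to 3) on the right, split into 2 assembled inverted repeat transcripts, rRNA genes and all other plastid transcripts. The lowest segment ranges from 0.0143% to 0.0879% of the library, and the other segments each stay between 0.00699% and 0.0144%.

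The names attached to assembled transcripts decide where these levels are counted. The files call MSTRG.37.6 rps12 and its mirror copy MSTRG.76.1 ndhB, so the same stretch of RNA enters both the ribosome and the photosynthesis class. Without these transcripts the gene sums were 0.751 FPKM for ndhB and 0.630 FPKM for rps12 on average over the 6 libraries, against 56.6 and 57.0 FPKM with them. The annotated rps12 model that joins its separately encoded first exon to the rest (gene-CisiCp046, spliced in trans in land plants) was listed at 0 in all 6 libraries. In the authors' deposited table, a value per gene in a unit of its own, rps12, ndhB and rps7 have identical values in every library (309, 62.3 and 76.6 with the hormone, and 199, 135 and 382 without it). That table also lists clpP and rpl20 at identical values, and psbC and psbD. In the transcript tables, 5 gene names (clpP, ndhB, rpl20, rps12 and rps7) share the locus MSTRG.37.

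Of the 9 assembled transcripts, 6 overlap an annotated gene of the name they were given and 3 do not. MSTRG.5.1, counted under psbI, lies 646 bases from the annotated psbI, and MSTRG.13.1 lies 45 bases from trnC-GCA and has no strand. MSTRG.7.1 lies between the 23-base and 37-base pieces listed as trnG-GCC, on their strand and 5 bases from the nearer. MSTRG.58.1, from 102923 to 104223, overlaps rps12 on the opposite strand only at its edge, as the annotated model there ends at 102926. Assembled forms of atpF and ycf3 were single-exon models that run through the introns of the annotated gene. MSTRG.11.1 has the same start and end as annotated atpF (ATP synthase subunit b) and averaged 1.56 FPKM, against 0.239 FPKM for the spliced model. For ycf3, whose product helps assemble photosystem I, MSTRG.23.1 averaged 4.12 FPKM and the annotated model with 3 exons was listed at 0 in all 6 libraries.

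Mirror copies of annotated genes were close in some pairs and apart in others. By length, strand and position, 20 such pairs were found, 19 of them with a value in both copies. In 8 pairs the copies were exactly equal wherever both were above 0, and in 7 they were above 0 and within 10% of each other in all 6 libraries. The counts share some pairs, such as CisiCr003 and CisiCr006. Several equal pairs had values in few libraries, as trnV-GAC in 1 and trnR-ACG in 2, at means of 0.0121 and 0.0390 FPKM a copy. The copies of rps7 differed by a ratio of 0.997 to 1.04. In rpl22 the ratio between the copies was 1.31 to 4.34, in rpl23 it reached 1.44 and in rps19 1.28. The annotated ndhB copies averaged 0.751 and 4.6e-05 FPKM. How the authors divided reads between copies is not stated in the labels, so values of a pair may share reads. Gene sums for ycf2, rps7, rpl2, rpl22, rpl23, rps19 and several tRNAs add both copies, while the rRNA copies have separate locus tags and were not added. Some tRNA names also add separately listed pieces, as in trnI-GAU, with pieces of 42 and 35 bases in each copy. The name trnG-GCC adds pieces of 23 and 37 bases, the assembled MSTRG.7.1 and a separate 71-base gene at 39688 to 39758.

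**Figure D2:**
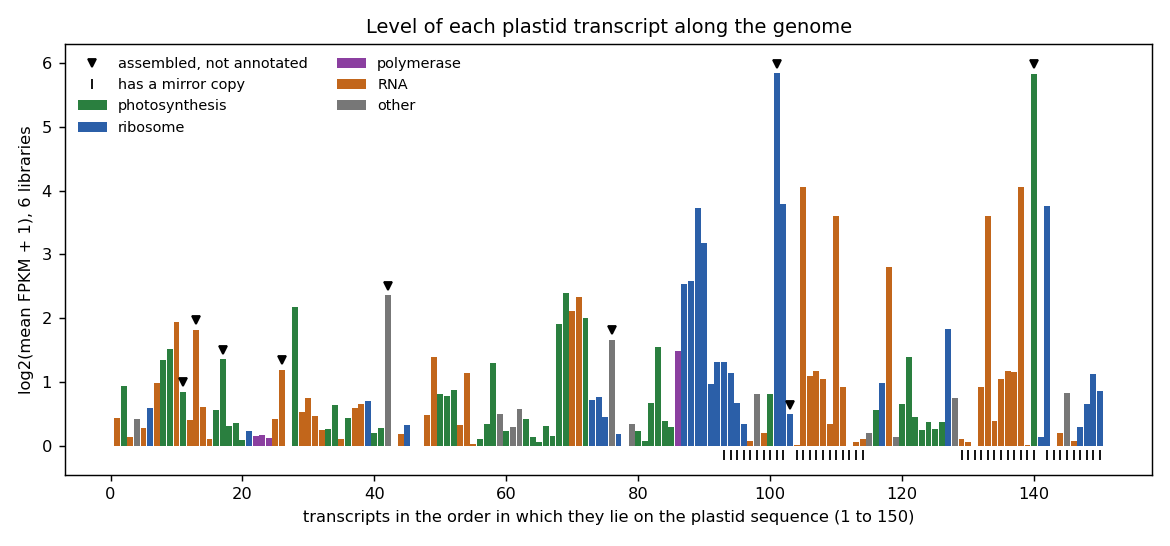
Each bar is a plastid transcript, in the order in which the 150 lie on the sequence, and its height is log2(mean FPKM + 1) over the 6 libraries, coloured by gene class. Triangles mark the 9 assembled transcripts and ticks below 0 mark transcripts with a mirror copy. The tallest bars are MSTRG.37.6 and MSTRG.76.1, at means of 56.4 and 55.9 FPKM.

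Levels within the plastid genome were far apart. The highest mean over the 6 libraries was 57.0 FPKM (rps12, at the 92.3 percentile of all genes by mean FPKM), and 75 of 115 members had a mean under 1 FPKM. Of those 75, 4 were listed at 0 in every library (petN, trnT-UGU, CisiCr004 and CisiCr005). Over all members, 32 were listed at 0 in some but not all libraries. A level of at least 1 FPKM in all 6 libraries was reached by 27 members. The median mean was 0.349 FPKM for photosynthesis genes, 1.16 FPKM for ribosome genes, 0.117 FPKM for polymerase genes, 0.581 FPKM for RNA genes and 0.495 FPKM for the other names. Of the 10 highest members by mean, 8 were among the 10 highest in every library. Among protein-coding members the median annotated length was 370.5 bases in the 26 with a mean of at least 1 FPKM and 546 bases in the 52 below it.

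Genes usually counted as markers of green tissue were low. The D1 reaction centre protein gene psbA averaged 0.903 FPKM, the photosystem I core genes psaA and psaB 0.210 and 0.152 FPKM, and the photosystem II core genes psbB, psbC and psbD 0.169, 0.561 and 0.200 FPKM. The Rubisco large subunit gene rbcL was the one of these 7 with a mean above 1 FPKM, at 1.44 FPKM. Their summed level was 4.54, 3.16 and 3.92 FPKM in the libraries with the hormone and 3.69, 2.59 and 3.94 FPKM in those without, so the groups overlapped. Nuclear symbols for Rubisco small subunits, light-harvesting proteins or photosystem II subunits matched no gene name here.

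Genes of small subunits held both high and low levels within their complexes. In photosystem I, psaJ, a small membrane subunit, and psaC, which holds iron-sulphur clusters, averaged 3.01 and 1.63 FPKM, and psaI 0.178 FPKM, which lies between psaB and psaA. In photosystem II the small subunit genes psbM, psbI, psbH and psbK averaged 3.53, 2.65, 1.93 and 1.53 FPKM, while psbE, psbJ, psbT and psbL averaged 0.110, 0.102, 0.0531 and 0.0380 FPKM, below the core genes psbA, psbB, psbC and psbD. In the cytochrome b6f complex the small subunit genes petG and petL averaged 4.27 and 2.75 FPKM, petN was listed at 0 throughout, and petA, petB and petD averaged 0.341, 0.313 and 0.224 FPKM. These small genes span few bases, and coverage of petL, for example, came to between 681.5 and 1825.5 bases in a library. Apart from ndhB, the 10 other ndh genes averaged between 0.183 (ndhG) and 0.826 FPKM (ndhC).

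Ribosomal protein genes also differed widely in level. For the large subunit, rpl14 averaged 8.04 FPKM and rpl36 4.996 FPKM, while rpl16 averaged 0.956 FPKM. The polymerase gene rpoA, for the alpha subunit, averaged 1.80 FPKM, while rpoB, rpoC1 and rpoC2, for the large subunits, averaged 0.0833, 0.127 and 0.107 FPKM.

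Expression was then compared between salicylic acid with yeast and yeast alone. Of the 115 members, 40 had a mean of at least 1 FPKM over the 6 libraries and were tested. The member nearest above this limit was rpl2 at 1.16 FPKM and the nearest below it trnQ-UUG at 0.977 FPKM. In limma over all 17355 genes tested, 0 of the 40 members passed an adjusted p of 0.05, against 0.00576% of all genes, and the smallest adjusted p of a member was 0.856. An unadjusted p under 0.05 was reached by 2 members, against 5.23% of all genes: trnL-UAG, higher (3.05% of all genes), and trnW-CCA, lower (2.18%). Without replicate 1 of the hormone group, 8 of the 40 reached it, against 7.38% of all genes, and again 0 passed the adjusted threshold. By log2 difference 18 members were higher and 22 lower, where 54.2% of all genes were higher. The median log2 difference was -0.10 over the 40 members and 0.02 over all genes. The libraries of the groups did not overlap in 2 members, both higher with the hormone, against 10.2% of all genes in either direction, 5.68% higher and 4.56% lower. Differences refer to log2(FPKM + 1), which understates the change of low genes.

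Photosynthesis had 11 tested members, 6 higher and 5 lower by log2 difference. The gene sum of ndhB was 90.7, 18.4 and 22.6 FPKM in the hormone replicates 1 to 3, against 57.7, 38.7 and 112 FPKM with yeast only. Replicates 2 and 3 with the hormone lay below all libraries of yeast alone, while replicate 1 lay within their range, and the log2 difference was -0.88 (SE 0.57, 95% interval -2.18 to 0.41, adjusted p = 0.973 in limma). For petG the values were 5.31, 2.85 and 2.20 FPKM with the hormone and 5.77, 4.35 and 5.12 FPKM without it. Of the photosynthesis genes petG had the smallest p, with a log2 difference of -0.50 (SE 0.26, 95% interval -1.09 to 0.08, adjusted p = 0.960 in limma), and replicate 1 with the hormone lay inside the range of the other group. The gene petL read 3.80, 1.36 and 2.09 FPKM with the hormone and 3.37, 2.09 and 3.77 FPKM without it.

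The photosystem II gene psbM had 5.78, 4.22 and 2.83 FPKM in libraries with the hormone and 3.06, 3.66 and 1.64 FPKM in libraries without it. Its log2 difference was 0.48 (SE 0.28, adjusted p = 0.967 in limma), the largest positive one among photosynthesis genes. For psbI, with part of its level from an assembled transcript away from the gene, the levels were 2.78, 2.61 and 2.52 FPKM with the hormone and 4.22, 1.48 and 2.28 FPKM without. The spread was wide in psbH, with 2.13, 2.52 and 0.782 FPKM in the hormone libraries and 0.578, 2.88 and 2.70 FPKM in the others. In psbK the levels were 0.761, 2.22 and 0.884 FPKM with the hormone and 2.19, 1.62 and 1.51 FPKM without it. Neither showed separate groups. In photosystem I, psaJ stood at 3.81, 1.94 and 3.59 FPKM with the hormone and 4.02, 2.79 and 1.88 FPKM without, and psaC at 2.20, 1.72 and 1.49 FPKM with it, against 1.60, 1.25 and 1.504 FPKM in yeast alone. The ATP synthase gene atpF had 2.79, 1.35 and 1.35 FPKM with the hormone and 1.87, 1.55 and 1.85 FPKM without. For rbcL the levels were 2.28, 1.06 and 1.55 FPKM with the hormone and 1.55, 0.949 and 1.28 FPKM without it, with a log2 difference of 0.20 (95% interval -0.33 to 0.73). All these groups overlapped.

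**Figure D3:**
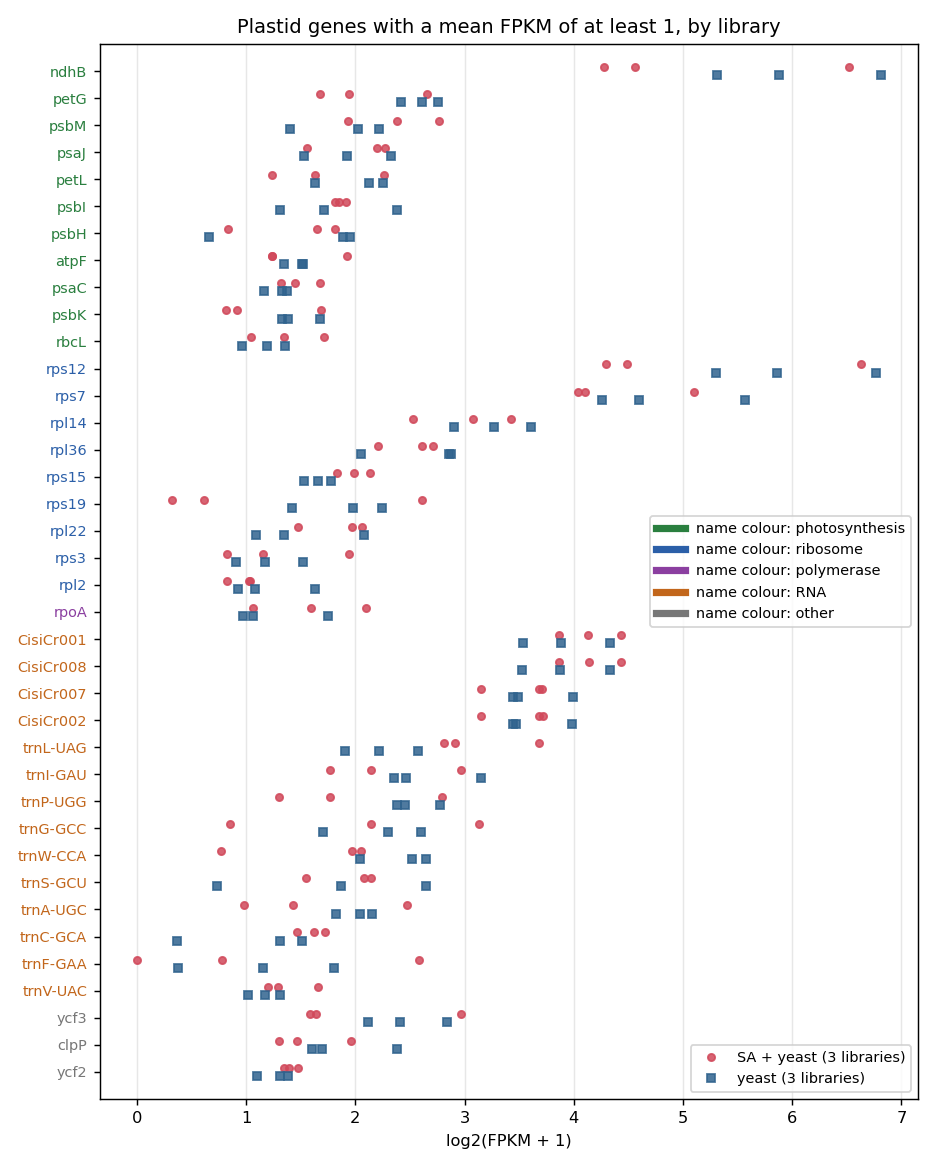
Points give log2(FPKM + 1) of 38 of the 40 plastid genes with a mean of at least 1 FPKM, with 3 libraries of salicylic acid and yeast (SA + yeast, circles) drawn above 3 of yeast alone (squares) in each row, and name colours giving the class. In ndhB and rps12 the libraries span from 18.4 to 112 FPKM, and in trnL-UAG and rps15 all circles lie right of all squares.

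The ribosome class had 11 tested members, 3 higher and 8 lower by log2 difference. The sum of rps12 was 98.3, 18.6 and 21.4 FPKM with the hormone and 57.3, 38.4 and 108 FPKM without it, and its log2 difference was -0.84 (SE 0.59, 95% interval -2.18 to 0.50, adjusted p = 0.973 in limma). The gene rps7, inside the same assembled transcripts, had 33.3, 15.4 and 16.1 FPKM with the hormone and 18.1, 23.2 and 46.3 FPKM without, a log2 difference of -0.39 (SE 0.37). Both were highest in replicate 3 of yeast alone and next highest in replicate 1 with the hormone. The large-subunit gene rpl14 had 9.76, 7.42 and 4.78 FPKM with the hormone, against 11.2, 6.49 and 8.64 FPKM in yeast alone. Its groups overlapped, and its log2 difference was -0.25 (SE 0.26).

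The polymerase gene rpoA had 1.09, 3.27 and 2.02 FPKM in the hormone libraries and 1.08, 2.37 and 0.964 FPKM in the others, lowest in replicate 3 of yeast alone. For rpl36 the levels were 3.61, 5.10 and 5.53 FPKM with the hormone and 3.14, 6.34 and 6.26 FPKM without. Neither gene separated the groups.

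One ribosome gene did. The gene rps15, for a small-subunit protein, had 3.38, 2.96 and 2.57 FPKM in replicates 1 to 3 with the hormone, against 1.88, 2.43 and 2.16 FPKM in replicates 1 to 3 of yeast alone. The lowest library with the hormone was above the highest without it, but the log2 difference of 0.33 (SE 0.18, 95% interval -0.08 to 0.74) did not pass (adjusted p = 0.962 in limma). When each level was instead divided by the plastid FPKM sum of its library, the groups overlapped for rps15. Among the rest, rps19 had 5.12, 0.535 and 0.249 FPKM with the hormone and 1.68, 2.94 and 3.74 FPKM without, the widest relative range of any tested member without a 0. For rpl22 the levels were 3.16, 2.91 and 1.78 FPKM with the hormone and 1.54, 1.13 and 3.22 FPKM in its absence. For rps3 they were 2.84, 1.23 and 0.771 FPKM with it and 0.871, 1.25 and 1.86 FPKM in its absence, and for rpl2 1.03, 1.05 and 0.770 FPKM with it and 0.898, 1.12 and 2.10 FPKM in its absence. Their groups overlapped.

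RNA genes had 14 tested members, 7 higher and 7 lower. The leucine tRNA gene trnL-UAG had the smallest p of all members. It stood at 11.9, 6.01 and 6.54 FPKM with the hormone and at 3.66, 2.74 and 4.94 FPKM without it, so that each library with the hormone was above each library without. The means were 8.14 ± 3.24 FPKM with the hormone and 3.78 ± 1.10 FPKM in yeast alone (SD, n = 3 each), and the log2 difference was 0.91 (SE 0.27, 95% interval 0.29 to 1.52, unadjusted p = 0.00868, adjusted p = 0.856 in limma), so it did not pass over all genes. With the plastid share of each library as a covariate its log2 difference was 1.14 (SE 0.15) and its adjusted p = 0.598 in limma. The gene spans 80 bases, from 118912 to 118991 on the plus strand, and its coverage came to between 1067 and 4747 bases in a library.

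Other tRNA genes differed less or the other way. The tryptophan tRNA gene trnW-CCA stood at 2.91, 3.15 and 0.708 FPKM with the hormone and 4.73, 3.13 and 5.26 FPKM without it, with a log2 difference of -0.81 (SE 0.34, 95% interval -1.59 to -0.03, adjusted p = 0.943 in limma). Replicate 3 with the hormone was its lowest library, and 1 library of yeast alone lay within the range of the other group. Beside it on the genome, the proline tRNA gene trnP-UGG had 5.93, 1.47 and 2.41 FPKM with the hormone and 5.85, 4.47 and 4.21 FPKM without, a log2 difference of -0.58 (SE 0.34, adjusted p = 0.970 in limma). Under trnC-GCA, mostly the assembled transcript next to that cysteine tRNA gene, the levels were 2.30, 2.08 and 1.76 FPKM with the hormone and 0.286, 1.47 and 1.85 FPKM without, a log2 difference of 0.54 (SE 0.30, adjusted p = 0.962 in limma). Replicate 1 of yeast alone was low and replicate 3 of that group lay among the libraries with the hormone.

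The remaining tested tRNA names had wide ranges. The isoleucine tRNA gene trnI-GAU had 3.43, 2.41 and 6.81 FPKM with the hormone and 7.90, 4.13 and 4.51 FPKM without, and the alanine tRNA gene trnA-UGC, from the same unit as the rRNA genes, 0.968, 1.69 and 4.54 FPKM with and 3.43, 2.55 and 3.12 FPKM without. For trnG-GCC the levels were 7.78, 3.43 and 0.8003 FPKM with the hormone and 2.26, 3.93 and 5.07 FPKM without, and its assembled transcript MSTRG.7.1 was listed at 0 in replicate 3 with the hormone. The gene trnF-GAA was listed at 0 in that same library and stood at 5.01 and 0.712 FPKM in replicates 1 and 2 with the hormone, and at 1.22, 0.298 and 2.48 FPKM without it. Of the mean level under trnG-GCC, 65.2% came from MSTRG.7.1, which has 449 bases and overlaps no annotated transcript. It lies between the 23-base and 37-base pieces listed under that name, on the same strand. Under trnF-GAA stands 1 short gene of 73 bases, and single libraries moved its level far. The serine tRNA gene trnS-GCU had 3.21, 3.41 and 1.92 FPKM with and 2.66, 0.660 and 5.26 FPKM without the hormone, and trnV-UAC, for valine, 1.45, 1.30 and 2.16 FPKM with and 1.47, 1.26 and 1.02 FPKM without. Just below the limit for testing, the glutamine tRNA gene trnQ-UUG had 1.43, 1.28 and 1.22 FPKM with the hormone and 0.619, 0.390 and 0.925 FPKM without it. Its groups did not overlap. The same held for the untested psbN and psaA, higher with the hormone, and for rps16, trnfM-CAU, matK, trnK-UUU and psaB, lower with it. The shares of all genes without overlap given here cover only genes of at least 1 FPKM.

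The rRNA genes had the lowest coefficients of variation among the 10 highest members, 21.5% to 24.3% over the 6 libraries. The 1491-base gene CisiCr001 had 16.5, 13.6 and 20.6 FPKM with the hormone and 19.2, 13.7 and 10.6 FPKM without it, and its mirror copy CisiCr008 had 16.7, 13.5 and 20.6 FPKM with it, against 19.2, 13.7 and 10.5 FPKM in yeast alone. For the 2809-base gene CisiCr007 the levels were 11.9, 7.87 and 12.1 FPKM with the hormone and 14.9, 9.89 and 10.2 FPKM without, and for its copy CisiCr002 they were 11.8, 7.87 and 12.2 FPKM with it, against 14.9, 9.86 and 10.1 FPKM in yeast alone. The groups overlapped in all 4. Log2 differences were 0.23 for CisiCr001 and CisiCr008 (SE 0.23 each) and -0.12 for CisiCr007 and CisiCr002 (SE 0.21 and 0.22), and the second pair turned positive without replicate 2 with the hormone or replicate 1 of yeast alone. Replicate 3 of yeast alone, the library with the highest level of the assembled ndhB and rps12 transcripts, had the lowest level of CisiCr001. The other libraries did not follow such an order. Replicate 1 with the hormone, next highest in the assembled transcripts, had 16.5 FPKM of CisiCr001. CisiCr007 and CisiCr002 were lowest in replicate 2 with the hormone, at 7.87 FPKM each.

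The other 3 tested names were ycf3, clpP and ycf2, 1 higher and 2 lower. For ycf3 the levels were 6.82, 1.995 and 2.11 FPKM with the hormone and 4.31, 3.35 and 6.15 FPKM without it, all of it from the unspliced assembled model. The protease subunit gene clpP had 2.88, 1.47 and 1.75 FPKM in the hormone libraries and 2.05, 2.24 and 4.19 FPKM in the others, with 89.1% of its level from an assembled transcript that also overlaps rpl20 and rps12. The large gene ycf2 had 1.78, 1.54 and 1.63 FPKM with the hormone and 1.14, 1.47 and 1.61 FPKM without. It had the lowest coefficient of variation of the 40 members, 14.2% over the 6 libraries. All 3 overlapped between groups.

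**Figure D4:**
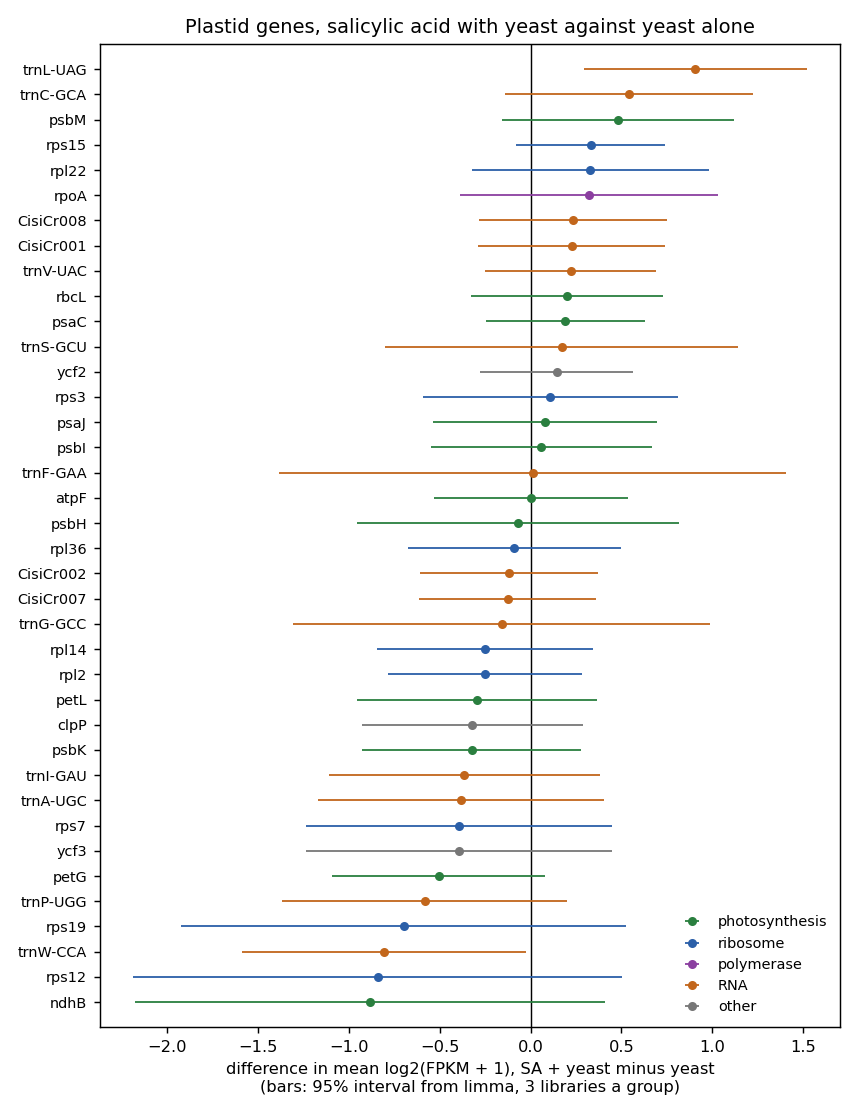
Points give the difference in mean log2(FPKM + 1), salicylic acid with yeast minus yeast alone, for 38 of the 40 tested plastid genes, with bars for the 95% interval from limma (3 libraries a group) and colours for the class. The largest positive difference is that of trnL-UAG at 0.91 and the most negative that of ndhB at -0.88.

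Members moved over libraries more than genes at large. Over the 6 libraries the median coefficient of variation was 40.3% in the 40 tested members and 17.7% over all 17355 genes, without matching for level. The highest library was replicate 1 with the hormone or replicate 3 of yeast alone in 24 of the 40 members, where this held for 27.0% of all genes. Replicate 1 with the hormone was the highest in 16 of these and replicate 3 of yeast alone in 8. These 2 libraries were picked because the plastid share was highest in them, so the count is a description and no test. The members are also not independent, as the levels of ndhB and rps12 come mostly from mirror copies. Dividing each level by the plastid FPKM sum of its library left the median coefficient at 40.6%, lower in 20 members and higher in 20. After division it was 14.1% for petL (37.7% before), 16.1% for clpP (40.7% before) and 19.6% for ycf3 (49.2% before). For CisiCr001 it was 42.1% (24.0% before) and for rpoA 77.5% (51.2% before). The FPKM sum itself is 16.9% to 47.7% from MSTRG.37.6 and MSTRG.76.1. After this division the groups did not overlap in 3 tested members, trnL-UAG, psaC and rbcL, all higher with the hormone. The same division left 2.32% of all 17355 genes not overlapping and higher, and 0.225% not overlapping and lower. The plastid FPKM sum ranged 2.18-fold over libraries and overlapped between groups. Dividing genes outside the plastid by it makes overlap more likely, so these shares are no like reference for the members. Without division, 5.68% of all genes did not overlap and were higher.

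**Figure D5:**
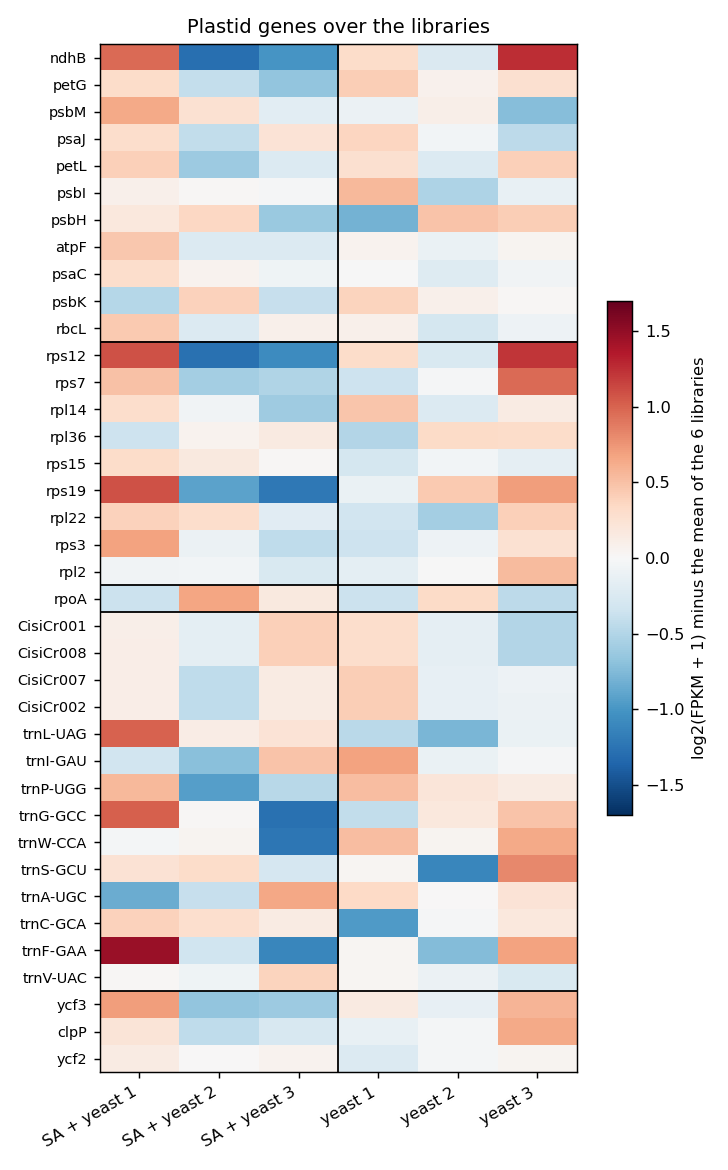
Colours give log2(FPKM + 1) minus the mean of the 6 libraries for 38 of the 40 tested plastid genes (rows, by class) in 3 libraries of salicylic acid with yeast (SA + yeast) and 3 of yeast alone. In 23 of the 38 rows the highest library is replicate 1 of SA + yeast or replicate 3 of yeast alone.

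The make-up of plastid RNA by class was also compared. As a share of the plastid FPKM sum, photosynthesis genes made up 25.5% ± 4.58 with the hormone and 28.8% ± 3.15 without it (SD, n = 3 each). Ribosome genes made up 36.1% ± 4.90 with it and 40.4% ± 4.71 in yeast alone, and RNA genes 34.2% ± 9.04 with it and 27.0% ± 6.99 in yeast alone. Polymerase genes made up 1.02% ± 0.671 with it and 0.544% ± 0.342 in yeast alone, and other names 3.18% ± 0.101 with it and 3.25% ± 0.362 in yeast alone. The exact two-sided permutation test gave p = 0.3 for polymerase genes, p = 0.4 for photosynthesis, ribosome and RNA genes and p = 0.8 for other names, and 0.5 to 0.8 after adjustment over the 5 classes. The sign for photosynthesis turned when the 2 assembled mirror transcripts were left out, with 17.6% ± 1.62 with the hormone and 16.0% ± 1.31 in yeast alone (SD, n = 3 each; p = 0.2, exact permutation test).

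Single plastid transcripts gave no call either. Of 44 plastid transcripts tested in limma over 26605 transcripts, 0 passed, against 0.0338% of all, and the smallest adjusted p was 0.928. An unadjusted p under 0.05 was reached by 1, against 5.18% of all transcripts. By log2 difference 16 were higher and 28 lower.

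Nuclear partners could be named for 4 genes. The photosystem I genes PSAE, PSADB and PSADA and the chlorophyllase gene CHLASE1, whose product cuts chlorophyll, averaged 4.84, 1.64, 0.245 and 17.5 FPKM over the 6 libraries. PSAE stood at 4.63 ± 1.29 FPKM with the hormone and 5.05 ± 2.36 FPKM without it, and PSADB at 1.77 ± 0.673 FPKM with it and 1.52 ± 1.28 FPKM without it (SD, n = 3 each). CHLASE1 had 16.7, 15.0 and 12.4 FPKM with the hormone and 18.8, 20.9 and 21.1 FPKM without, a log2 difference of -0.45 (SE 0.15, adjusted p = 0.902 in limma). Its groups did not overlap, where 4.56% of all genes tested did not overlap and were lower. Of the 3 that were tested, 1 was higher and 2 lower, and 0 passed.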

How the data were processed

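Per the file headers, the deposited transcript tables give FPKM and mean per-base coverage (a signal that was not normalized) for each transcript of each library. Sequencing was on an Illumina instrument, per the labels' protocols. The sources used here name no aligner or genome build. The authors' deposited gene table holds a score per gene in a unit of its own and served as an alternative. Gene values are sums of transcript FPKM by name. A pseudocount of 1 was added, log2 was taken, and genes averaging at least 1 FPKM were compared by limma (version 3.58.1, R 4.3.3; two-sided, mean-variance trend, Benjamini-Hochberg adjustment over all genes). Shares had exact permutation tests. Covered bases are coverage times transcript length. The limma test was checked on simulated data. Members, lists and tests were chosen with earlier results of these data known. Full statistics are given for the 10 highest members and the 3 with the smallest p in each direction, and values by library for the members tested. Of these, 2 are not reported here singly or drawn, and remain in the counts over members. Plots used matplotlib 3.10.9.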

Additional observations from a re-analysis of the deposited data

How the results depend on the processing

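No member passed in limma under any of the 16 alternatives for genes or the 9 for transcripts, and the smallest adjusted p of a member gene was 0.562, with the replicate block. At an unadjusted p under 0.05 there were 2 member genes, against 5.23% of all genes. There were 5 with the block (6.46% of all genes), 8 without replicate 1 of the hormone group (7.38%) and 8 of 111 without a filter (5.12%). Of 211 log2 differences of the 14 genes followed singly, 207 kept their direction. Those that turned were CisiCr007 (-0.22 to 0.059 with 1 left out) and CisiCr002 (-0.22 to 0.067). Many of the 211 could not turn, as the filters, the trend setting and the replicate block leave the log2 difference itself unchanged. So does leaving out assembled transcripts for genes without them. With the deposited gene table, rps12, ndhB and rps7 share the same value, -0.93. The count therefore overstates how far directions held. The difference in plastid share, -0.0198 percentage points, was 3.72e-05 with annotated transcripts only. It ran from -0.0416 without replicate 1 of the hormone group to -0.00320 without replicate 3 of yeast alone. In percentage points of the plastid sum, photosynthesis, at -3.28, was 1.31 with annotated transcripts only and 1.53 without MSTRG.37.6 and MSTRG.76.1. Other names, at -0.070, were 1.67 as covered bases, 0.408 without rRNA and tRNA genes in the denominator, and -0.26 to 0.10 with 1 library left out. The causes were not tested. With the replicate block the share difference was -0.0198 (p = 0.75, exact sign-flip test, smallest possible 0.25). Same-numbered libraries correlated at 0.114, 0.188 and -0.00939 in their deviations, so the numbers are not shown to pair them. Of the members, 36 were listed at 0 in at least 1 library, 21 of them in the deepest library and 12 in the shallowest.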
